A study of Mus musculus with 20 samples.

Results

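The genes described are 10 components of the circadian clock, Arntl, Clock, Npas2, Per1, Per2, Per3, Cry1, Cry2, Nr1d1 and Dbp, taken by name from 36611 genes measured in inguinal subcutaneous white adipose tissue (iWAT) of mice. RNA was sequenced from 20 female mice aged 6 months, labelled C57BL/6, in 4 groups of 5. The floxed line was on C57BL/6 N Tac and the Cre line on C57BL/6 J, so the background mixes both substrains. Control mice carried floxed Tmem120a (Tmem120a fl/fl, exons 2 and 3) without Cre and are called wild type in the labels. Their Ad-Tmem120a-/- littermates also carried Adiponectin-Cre, which acts in mature adipocytes, so the other cells of the tissue kept the gene. For 15 weeks both genotypes received either LFD, a low-fat diet with 10.5% of fat, or HFD, a high-fat diet with 58%. All mice were fasted for 16 h before tissue was taken and lived under 12 h of light and 12 h of dark, with lights on at 7 am. The hour at which each mouse was killed is not given in the sources used here. Levels are given as TPM, the share of a library's transcripts that belong to a gene after scaling by length, and fold changes come from edgeR's quasi-likelihood test on estimated counts of read pairs, where an adjusted p (Benjamini-Hochberg over all genes tested) under 0.1 is a call.

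The clock is a feedback loop of transcription that runs in nearly every cell, adipocytes included. Arntl (also called Bmal1) pairs with Clock or its relative Npas2 and turns on Per, Cry, Nr1d1 and Dbp through E-boxes. Per and Cry proteins then return to the nucleus and block the pair. Nr1d1 (Rev-erb alpha) closes a second loop by repressing Arntl at elements that the ROR activators share with it, and Dbp activates genes that carry D-boxes. Over the day, Arntl therefore peaks nearly opposite to Dbp, Nr1d1 and the Per genes, and food intake and fasting can shift the clocks of peripheral tissues.

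The elements through which these genes are known to act on each other were searched on both strands in the promoter windows that RefSeq lists (GRCm38.p6, 250 bases before to 50 after a start). Of the 10 genes, 9 had a window, 13 windows in all, and none was listed for Per2. The E-box CACGTG was held by Per1 and Cry1 and by 7.15% of all 32851 windows, and its variant CACGTT by Cry1, Cry2 and Nr1d1 and by 4.69% of all windows. The D-box TTATGTAA was held by Per3, at 2 places, and by 0.938% of all windows. The ROR element TAGGTCA was held by Arntl and by 2.61% of all windows, and TGGGTCA by none of the 9 genes and by 3.98% of all windows. Counted by gene, as the clock genes are here, the shares of all 27025 gene symbols were somewhat higher. In the same order they were 8.09%, 5.44%, 1.11%, 2.97% and 4.57%. No 2 of these matches overlapped. The windows below are shown because they place the genes in the loop, with the matched element in capitals. They read 5′ to 3′ on the strand of the gene, and AACGTG is the reverse of CACGTT.
Arntl, chr7:113207530-113207558, plus strand, 30 bases after the start: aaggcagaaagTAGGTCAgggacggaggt
Nr1d1, chr11:98775378-98775431, minus strand, 28 bases before the start: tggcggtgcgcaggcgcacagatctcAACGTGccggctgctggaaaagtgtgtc
Per1, chr11:69098757-69098814, plus strand, 166 bases before the start: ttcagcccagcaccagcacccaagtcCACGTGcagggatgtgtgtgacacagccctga
Cry1, chr10:85185083-85185140, minus strand, E-box 60 bases before the start: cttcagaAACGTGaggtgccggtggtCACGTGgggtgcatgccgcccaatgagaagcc
Per3, chr4:151044837-151044896, minus strand, 205 bases before the start: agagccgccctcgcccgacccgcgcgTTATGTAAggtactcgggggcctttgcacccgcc
Per3, chr4:151044790-151044849, minus strand, 158 bases before the start: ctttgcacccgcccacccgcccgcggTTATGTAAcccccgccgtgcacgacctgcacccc
A match is a string of letters and was not tested as a binding site.

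Libraries held between 54605101 and 92387737 estimated counts. Tmem120a was lower in Ad-Tmem120a-/- mice by 1.64 ± 0.24 (SE) on the log2 scale over both diets (adjusted p = 0.00452), and its TPM still overlapped between genotypes on each diet. The summed TPM of 10 skeletal muscle fibre genes ran from 7.79 to 3321, with the highest in control LFD replicate 5. In controls 8 of the 10 were called lower on HFD than on LFD, beside 9.32% of 15311 genes called in either direction. The median sum on HFD was 12.1 TPM in controls and 771 TPM in Ad-Tmem120a-/- mice, with no fibre gene called for genotype. The summed TPM of 5 brown adipocyte genes ran from 19.3 to 514, and its median went from 266 TPM on LFD to 39.7 TPM on HFD in controls. There 3 of the 5 were called lower, beside the same 9.32% of all genes. The summed TPM of 10 white adipocyte genes ran from 13379 to 20657 on LFD and from 18118 to 30111 on HFD, the summed TPM of 9 lymphocyte genes from 9.09 to 208, and every white adipocyte, brown adipocyte, fibre and lymphocyte gene listed was above 0 in every group. The part of these cell types in the clock gene values was not tested.

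Averaged over the 20 libraries, Clock was at 44.3 TPM, Nr1d1 at 34.8, Dbp at 33.3, Per1 at 12.6, Cry2 at 11.3, Per3 at 8.65, Per2 at 2.81, Arntl at 2.73, Cry1 at 1.84 and Npas2 at 0.233 TPM. The ranges of neighbours in this order overlapped over the libraries, except those of Cry1, which lay between 1.09 and 3.03 TPM, and Npas2, which lay between 0 and 0.653 TPM. Within one gene the highest library stood 2.39-fold (Nr1d1) to 5.51-fold (Per1) above the lowest, leaving Npas2 aside. In edgeR 9 of the 10 genes passed the filter of a mean of 0.5 TPM in every comparison, and Npas2 did not. In bulk tissue fewer cells of a type and less RNA per cell cannot be told apart.

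**Figure D1:**
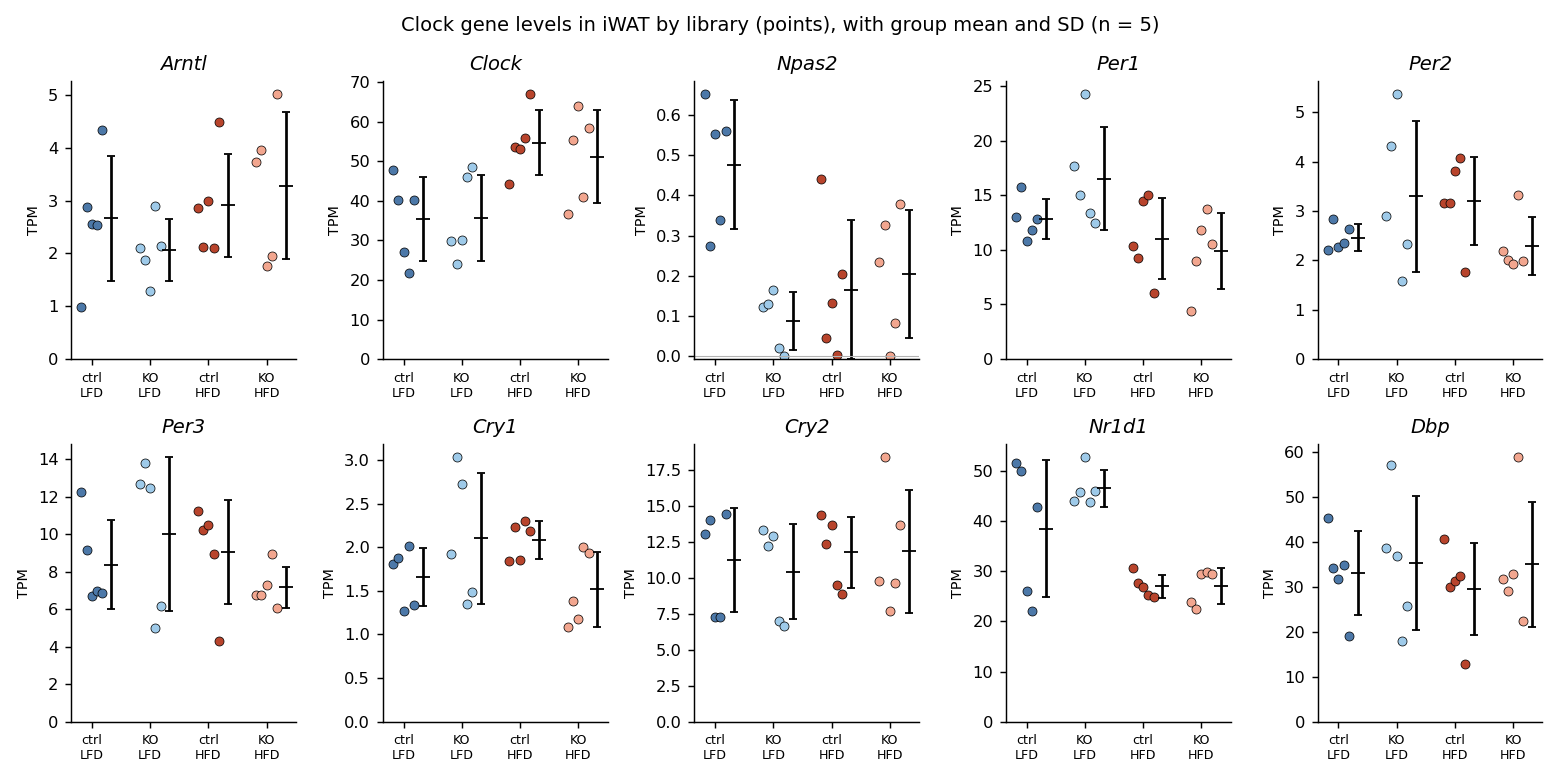
TPM of each clock gene in every library, by group (points, linear axes with a scale of their own), with the group mean and SD to the right (n = 5). Nr1d1 lies between 43.9 and 52.8 TPM in Ad-Tmem120a-/- mice (KO) on LFD and between 22.5 and 29.8 TPM on HFD, while most other genes overlap between groups.

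Diet was the comparison in which clock genes moved. Over both genotypes Nr1d1 and Per1 were lower and Clock was higher on HFD, 3 of the 9 genes tested, 1 in the higher and 2 in the lower direction. Of all 15574 genes tested, 25.2% were called, 12.5% higher and 12.7% lower, so the share of clock genes called was near that of all genes. The median log2 fold change (HFD over LFD) was -0.20 over the 9 clock genes and -0.03 over all genes tested. In Ad-Tmem120a-/- mice alone, 2 of 9 were called, Nr1d1 and Per1, both lower, beside 9.4% of 15705 genes (4.55% higher and 4.85% lower), with medians of -0.49 and 0.0026. In controls alone, edgeR called 0 of 9, beside 9.32% of 15311 genes. At an unadjusted p under 0.05 it was 1 of 9 in controls, beside 20.7% of all genes. DESeq2 called 1 (Nr1d1), beside 14.4%, and limma on log2(TPM + 1) called 1 (Clock), beside 14%.

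Nr1d1, the repressor of the second loop, gave the largest diet difference among the 9 genes in the edgeR fits. On log2(TPM + 1) that order did not hold, since Clock differed by more in controls (0.66 against -0.42) and by as much over both genotypes (0.59 against -0.59). In Ad-Tmem120a-/- mice it stood at 44.0, 45.9, 52.8, 43.9 and 46.1 TPM on LFD and at 23.9, 22.5, 29.5, 29.8 and 29.6 TPM on HFD. In controls it stood at 51.5, 49.9, 26.1, 22.1 and 42.9 TPM on LFD and at 30.7, 27.6, 26.9, 25.2 and 24.8 TPM on HFD. The diets did not overlap in Ad-Tmem120a-/- mice, where every HFD library was below every LFD library. In controls they did, because LFD replicates 3 and 4 sat among the HFD values while the other 3 sat well above them. The log2 fold change of estimated counts was -0.81 ± 0.13 (SE, n = 5 per group) in Ad-Tmem120a-/- mice (edgeR adjusted p = 0.00563). The exact permutation test on mean log2(TPM + 1) gave p = 0.00794, the smallest that 5 against 5 can give, and 40 such single-gene tests were run. In controls the log2 fold change was -0.70 ± 0.24 (SE, n = 5 per group), which missed the threshold (edgeR adjusted p = 0.114, exact permutation p = 0.151). DESeq2 called it there (adjusted p = 0.0476), and so did edgeR without control LFD replicate 4, one of the low libraries (log2 fold change -0.86, adjusted p = 0.0209). limma on log2(TPM + 1) gave -0.42 (adjusted p = 0.28), and the other fits without 1 library reached -0.49 (without control LFD replicate 1, adjusted p = 0.183) and an adjusted p of 0.226 (without control LFD replicate 2). Over both genotypes the fall was 0.75 ± 0.13 (SE, 10 libraries per diet) on the log2 scale (log2 fold change -0.75, edgeR adjusted p = 0.000452), and it stayed called without any one of the 20 libraries (-0.84 to -0.66). The difference of the diet effects between genotypes was -0.13 ± 0.27 (SE, edgeR unadjusted p = 0.632).

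All 3 Nr1d1 transcripts had lower means on HFD in Ad-Tmem120a-/- mice. Transcript ENSMUST00000064941 carried 72.5% of the gene's TPM and went from 33.7 ± 2.18 TPM (SD, n = 5) on LFD to 19.8 ± 2.58 TPM on HFD in Ad-Tmem120a-/- mice (exact permutation p = 0.00794). Transcript ENSMUST00000169592 went from 9.69 ± 4.57 to 5.32 ± 2.97 TPM (exact permutation p = 0.23) and ENSMUST00000139220 from 3.14 ± 1.52 to 1.93 ± 0.539 TPM (SD, n = 5, exact permutation p = 0.159). In controls ENSMUST00000064941 went from 28.5 ± 12.2 to 18.8 ± 2.5 TPM (SD, n = 5, exact permutation p = 0.159). The 3′ end of Nr1d1 (chr11:98629246-98636647, NCBIM37, minus strand) overlaps Thra, the thyroid hormone receptor alpha gene, on the other strand. Libraries were stranded, and whether strand was used in counting is not given in the sources used here. Thra lay between 13.99 and 23.9 TPM in Ad-Tmem120a-/- mice on LFD and between 12.2 and 27.0 TPM on HFD, ranges that overlapped.

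Per1, a Per gene that glucocorticoids induce, was called lower on HFD in Ad-Tmem120a-/- mice. It stood there at 17.7, 15.0, 24.3, 13.4 and 12.4 TPM on LFD and at 4.403, 9.02, 11.8, 13.7 and 10.6 TPM on HFD. In controls it stood at 13.01, 15.7, 10.8, 11.9 and 12.8 TPM on LFD and at 10.4, 9.27, 14.51, 15.0 and 6.08 TPM on HFD. Of the Ad-Tmem120a-/- mice, 4 of 5 HFD libraries lay below every LFD library, and in controls the diets overlapped. The log2 fold change was -0.79 ± 0.22 (SE, n = 5 per group) in Ad-Tmem120a-/- mice (edgeR adjusted p = 0.0594, exact permutation p = 0.0238) and -0.08 ± 0.16 (SE) in controls (edgeR adjusted p = 0.843). The difference between these diet effects, -0.74 ± 0.28 (SE), had an unadjusted edgeR p of 0.0161 and missed the threshold after adjustment. With offsets for transcript length the control fold change was -0.39 (edgeR adjusted p = 0.342). The difference between genotypes then shrank to -0.45, with an unadjusted edgeR p of 0.233. In limma on log2(TPM + 1) these were -0.25 and -0.47 (unadjusted p = 0.205 for the difference), and the call in Ad-Tmem120a-/- mice was lost (adjusted p = 0.115 with length offsets and 0.152 in limma). Over both genotypes the log2 fold change was -0.44 ± 0.16 (SE, edgeR adjusted p = 0.062). The call in Ad-Tmem120a-/- mice was lost without LFD replicate 6 or 8 or HFD replicate 17, 19 or 21 (adjusted p between 0.122 and 0.134). The call over both genotypes was lost without those same libraries or control HFD replicate 12 (adjusted p between 0.102 and 0.122).

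Clock, the partner of Arntl, was higher on HFD over both genotypes by a log2 fold change of 0.37 ± 0.14 (SE, edgeR adjusted p = 0.0742). In controls it stood at 48.0, 40.1, 27.1, 21.8 and 40.2 TPM on LFD and at 44.2, 53.7, 53.1, 56.1 and 67.0 TPM on HFD. Ad-Tmem120a-/- mice had 30.0, 24.0, 30.0, 46.2 and 48.6 TPM on LFD and at 36.8, 55.5, 64.1, 41.1 and 58.5 TPM on HFD. In controls 4 of 5 HFD libraries exceeded every LFD library, and in Ad-Tmem120a-/- mice 3 of 5 did. Neither genotype alone gave an edgeR call (0.39 ± 0.19 SE, adjusted p = 0.269 in controls, and 0.35 ± 0.22 SE, adjusted p = 0.424 in Ad-Tmem120a-/- mice). The call over both genotypes was lost in 11 of the 20 fits without 1 library, those without control LFD replicate 2, 3 or 4, Ad-Tmem120a-/- LFD replicate 6, 7 or 8, control HFD replicate 14 or 15, or Ad-Tmem120a-/- HFD replicate 18, 19 or 21 (adjusted p between 0.104 and 0.138). On the TPM scale the difference in controls was larger, at 0.66 on log2(TPM + 1) (limma adjusted p = 0.0791), while the median of all genes also moved there, to 0.13. Transcript ENSMUST00000075159, 76.0% of the gene's TPM, rose from 25.7 ± 8.47 to 41.8 ± 7.5 TPM in controls (SD, n = 5, exact permutation p = 0.00794).

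Arntl, the non-redundant activator, was the gene whose libraries were spread widest relative to its level after Per1, Npas2 aside (0.985 to 5.01 TPM, 201 to 981 counts). It stood at 0.985, 2.88, 2.57, 2.55 and 4.33 TPM in control LFD and at 2.85, 2.11, 2.99, 2.09 and 4.48 TPM in control HFD mice. Ad-Tmem120a-/- mice had 2.11, 1.88, 1.29, 2.90 and 2.14 TPM on LFD and at 3.73, 3.96, 1.76, 1.95 and 5.01 TPM on HFD. All 4 groups overlapped. No diet or genotype difference passed the test, and the diet effect over both genotypes was 0.25 ± 0.24 (SE, edgeR adjusted p = 0.525).

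Npas2, which can replace Clock, was near the limit of detection, with 0 to 187 counts. It stood at 0.653, 0.274, 0.553, 0.340 and 0.561 TPM in control LFD mice (84 to 187 counts) and at 0.122, 0.128, 0.164, 0.0187 and 0 TPM in Ad-Tmem120a-/- LFD mice (0 to 46 counts). On HFD it lay between 0.00277 and 0.440 TPM in controls and between 0 and 0.379 TPM in Ad-Tmem120a-/- mice. On LFD the genotypes did not overlap (exact permutation p = 0.00794), and on HFD they did (exact permutation p = 0.698). With no filter on low values, the log2 fold change on LFD was -2.20 ± 0.86 (SE, n = 5 per group) with an adjusted p of 0.703 in edgeR and 0.328 in DESeq2, neither a call. The HFD over LFD fold change in controls was -1.82 ± 0.71 (SE, edgeR adjusted p = 0.219), called by DESeq2 with no filter (-1.83, adjusted p = 0.0596).

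Dbp, the output activator, covered 12.8 to 59.0 TPM without a diet or genotype call. In controls it stood at 45.5, 34.3, 31.7, 35.0 and 19.2 TPM on LFD and at 40.8, 30.0, 31.4, 32.5 and 12.8 TPM on HFD. Ad-Tmem120a-/- mice had 38.7, 57.3, 36.9, 17.9 and 25.8 TPM on LFD and at 31.8, 29.1, 33, 59.0 and 22.5 TPM on HFD. Groups overlapped throughout, and the diet effect over both genotypes was -0.23 ± 0.26 (SE, edgeR adjusted p = 0.599). Of the Dbp TPM, 24.2% and 20.9% fell to 2 transcripts annotated as retained introns, and Dbp overlaps Sphk2 on the other strand. Over all genes, transcripts annotated as retained introns held medians of 2.997% and 3.17% of TPM in control and Ad-Tmem120a-/- mice on LFD, and 3.08% and 3.23% on HFD.

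The remaining repressors gave no diet call. Their log2 fold changes over both genotypes lay between -0.29 (Per3) and -0.07 (Cry2). Per3 stood at 12.2, 9.13, 6.69, 6.99 and 6.85 TPM in control LFD and at 12.7, 13.8, 12.5, 4.99 and 6.17 TPM in Ad-Tmem120a-/- LFD mice. On HFD it stood at 11.2, 10.2, 10.5, 8.95 and 4.29 TPM in controls and at 6.76, 6.75, 7.29, 8.94 and 6.05 TPM in Ad-Tmem120a-/- mice. In the Ad-Tmem120a-/- LFD group replicates 6, 7 and 8 stood well above replicates 9 and 10, and the same 3 mice were also the highest of the group for Per2 and Cry1. Per2 stood at 2.90, 4.32, 5.36, 1.58 and 2.32 TPM there and Cry1 at 1.92, 3.03, 2.72, 1.35 and 1.48 TPM. Over the other 3 groups Per2 lay between 1.77 and 4.08 TPM and Cry1 between 1.09 and 2.30 TPM. Cry2 lay between 6.69 and 18.4 TPM, with overlap among all groups. The 18.4 TPM was in Ad-Tmem120a-/- HFD replicate 18, which had 1855 Cry2 counts, the lowest of its group.

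**Figure D2:**
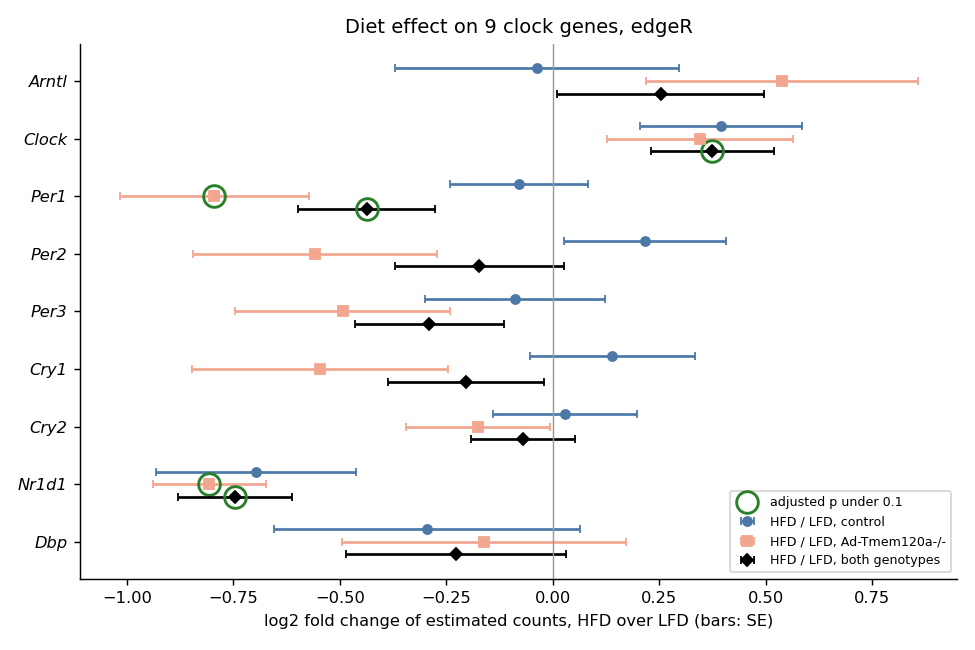
log2 fold change of estimated counts, HFD over LFD, with SE, for the 9 clock genes tested in controls (circles), in Ad-Tmem120a-/- mice (squares) and over both genotypes (diamonds), with edgeR calls ringed in green. Nr1d1 lies between -0.81 and -0.70 in all 3 fits, and Per1 at -0.79 in Ad-Tmem120a-/- mice and -0.08 in controls.

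No clock gene was called for genotype. On HFD edgeR called 0 of 9, beside 0.00657% of 15228 genes. At an unadjusted p under 0.05 the count was 2 of 9 (Cry2 and Per1), beside 4.66% of all genes, and DESeq2 and limma called 0 of 9, beside 0.657% and 0.0197%. On LFD edgeR called 0 of 9, beside 0.00636% of 15717 genes, with 0 of 9 at an unadjusted p under 0.05 (5.11% of all genes) and 0 of 9 in DESeq2 and limma (0.108% and 0.0127%). Over both diets edgeR called 0 of 9, beside 0.0385%, with 1 of 9, Cry2, at an unadjusted p under 0.05 (7.44% of all genes) and 0 of 9 in DESeq2 and limma (0.205% and 0.0257%). The test of genotype by diet called 0 of 9, beside 0% of 15574 genes, with 3 of 9 at an unadjusted p under 0.05 (3.6% of all genes) and 0 of 9 in DESeq2 and limma (0.0899% and 0%).

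The 3 genes of that last count were Per1, Per2 and Cry1, each with a diet effect that was more negative in Ad-Tmem120a-/- mice. The differences of the log2 fold changes were -0.74 ± 0.28, -0.80 ± 0.36 and -0.71 ± 0.34 (SE), with unadjusted edgeR p of 0.0161, 0.0391 and 0.0482. All had adjusted p of 1 after rounding. With length offsets only Per2 stayed under an unadjusted p of 0.05 (0.036), and in limma on log2(TPM + 1) only Cry1 did (0.0451), while the Per1 difference was -0.45 and -0.47. On HFD the log2 fold change of Ad-Tmem120a-/- over control was -0.36 ± 0.13 (SE) for Cry2 (edgeR adjusted p = 0.954) and -0.47 ± 0.21 (SE) for Per1 (edgeR adjusted p = 0.999). With offsets for transcript length neither kept an unadjusted p under 0.05, at -0.0066 for Cry2 and -0.17 (unadjusted p = 0.579) for Per1. The main Cry2 transcript, ENSMUST00000090559 (60.7% of TPM), was at 8.38 ± 1.07 TPM in control HFD and 6.39 ± 1.04 TPM in Ad-Tmem120a-/- HFD mice (SD, n = 5, exact permutation p = 0.0238, unadjusted). For the TPM of the whole Cry2 gene the same comparison gave an exact permutation p of 0.944. A processed transcript of Cry2, ENSMUST00000144842, reached 12.1 TPM in 1 Ad-Tmem120a-/- HFD library, the one with the Cry2 maximum of 18.4 TPM. It was at most 2.43 TPM in both control groups.

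Of the partners of the loop, Hlf, a D-box factor like Dbp, fell on HFD over both genotypes by 0.58 ± 0.19 (log2 -0.58, SE, edgeR adjusted p = 0.035), and Arntl2, a relative of Arntl, by 0.57 ± 0.16 (log2 -0.57, SE, edgeR adjusted p = 0.014). Hlf stood between 3.97 and 12.97 TPM in controls on LFD and between 4.25 and 7.05 TPM on HFD, ranges that overlapped. Arntl2 was also called in controls alone (log2 -0.77 ± 0.22 SE, edgeR adjusted p = 0.0714). Nr1d2, the close relative of Nr1d1, was at -0.15 ± 0.13 (SE, edgeR adjusted p = 0.482), between 82.4 and 242 TPM, and Ciart was at -0.01 ± 0.40 (SE, edgeR adjusted p = 0.995).

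Over both genotypes, where 12.5% of all genes tested were called higher on HFD and 12.7% lower, 2 of 6 output genes rose, Lonrf3 (0.94 ± 0.28 SE, edgeR adjusted p = 0.0222) and Tsc22d3, a glucocorticoid-induced leucine zipper gene (0.53 ± 0.15 SE, adjusted p = 0.0179), and 4 did not pass, with a list median of 0.08. Lonrf3 was near the floor, at means of 0.287 TPM in control and 0.345 TPM in Ad-Tmem120a-/- mice on LFD. On HFD these means were 0.767 and 0.715 TPM. It reached the filter of 0.5 TPM only through the HFD groups, so nothing is drawn from its call. Of 5 genes of fasting and glucocorticoid response, 0 rose or fell and the median was -0.06. Immediate early genes, which also answer to handling and dissection, moved with diet. Of 9, 8 were tested, and beside the same 12.5% and 12.7% of all genes, 4 rose (Jun, Dusp1, Fos and Atf3, log2 fold changes between 0.45 and 0.74), 1 fell (Egr1, -0.42) and 3 did not pass. Their summed TPM ran from 28.8 to 59.9 on LFD and from 45.2 to 77.5 on HFD, and their part in the Per1 and Nr1d1 values was not tested. None of the output, fasting and immediate early genes was called for genotype.

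The clock genes varied from mouse to mouse within groups, and several of them did so together. Of the 45 pairs, 10 had a correlation over the 20 libraries that passed a Benjamini-Hochberg threshold of 0.05 (Pearson r of log2(TPM + 1), two-sided permutation test, 100000 resamples), 7 positive and 3 negative. All 3 negative pairs joined Arntl to a gene that it is known to activate, and all 7 positive pairs lay among Per1, Per2, Per3, Cry1, Nr1d1 and Dbp. The values of one library share its scaling, and on log2 CPM (TMM-scaled counts as a share of the library, 9 genes) 15 of 36 pairs passed, 9 positive and 6 negative. The pattern of pairs differed on that scale. Clock had r = -0.562 with Per2, -0.576 with Per3 and -0.772 with Dbp, and Cry2 had 0.550 with Per3. Per1 and Nr1d1 had r = 0.415 there. When deviations from the 4 group means were used in place of the values, 6 of the 45 pairs passed. Pairs of other genes were not counted in this way, so these counts have no share over all genes beside them. They are not read as particular to the clock genes.

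**Figure D3:**
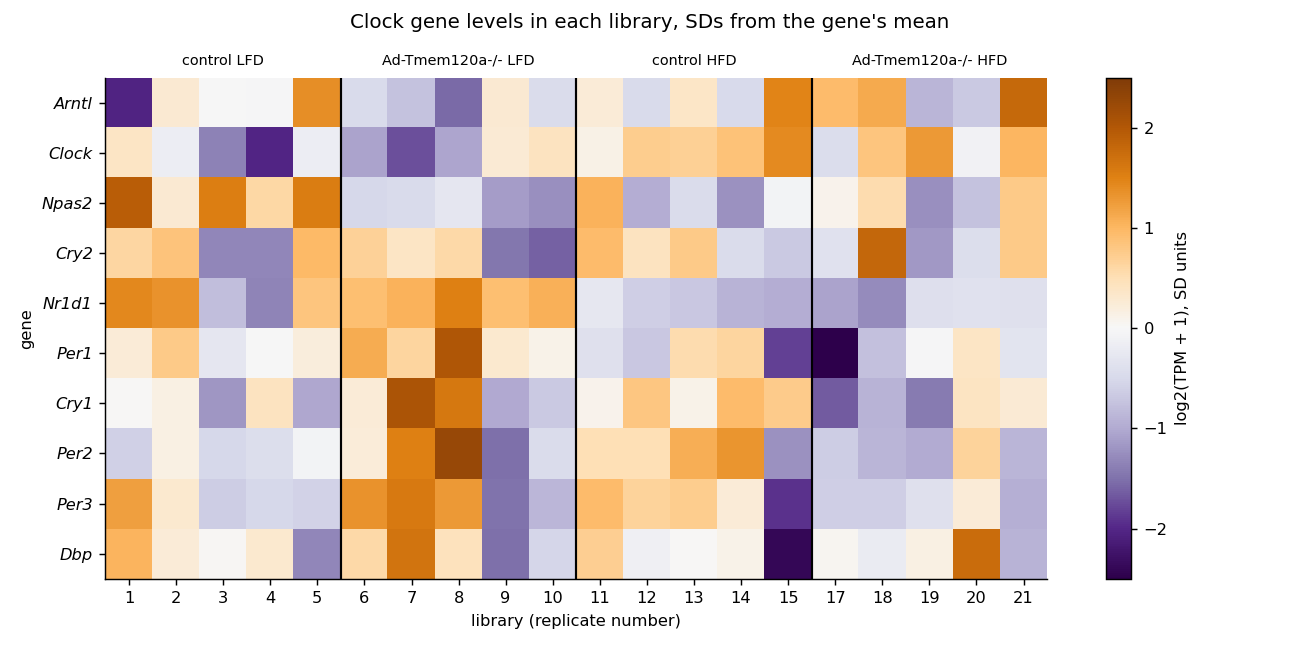
log2(TPM + 1) of each clock gene (rows) in each of the 20 libraries (columns, by group, with replicate numbers), in SDs from the gene's mean over libraries. Ad-Tmem120a-/- LFD replicates 7 and 8 are high for the Per genes and Cry1 and below the mean for Arntl and Clock, and control HFD replicate 15 is the reverse for Arntl, Clock, Per1, Per3 and Dbp. Per1 is low in replicate 15 by TPM (6.08) but not by counts. It held 2158 counts there, against 1582 in control HFD replicate 12, which had 9.27 TPM.

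Arntl ran against Dbp and Per3. Arntl and Dbp had r = -0.667 (permutation p = 0.00135, adjusted p = 0.0121) and rho = -0.738 (permutation p = 0.00035, adjusted p = 0.00525), with r = -0.721 within groups, -0.695 over the 10 LFD libraries and -0.667 over the 10 HFD libraries. The mouse with the lowest Arntl, control LFD replicate 1 at 0.985 TPM, had 45.5 TPM of Dbp, and control HFD replicate 15, with 4.48 TPM of Arntl, had the lowest Dbp at 12.8 TPM. Arntl and Per3 had r = -0.659 (permutation p = 0.00181, adjusted p = 0.0136) and rho = -0.659 (permutation p = 0.00227, adjusted p = 0.0251), with r = -0.638 within groups. Without the 2 libraries farthest from the median of Arntl, control LFD replicate 1 and Ad-Tmem120a-/- HFD replicate 21, r was -0.635 for Dbp and -0.600 for Per3, and the Per3 pair no longer passed (permutation, adjusted p = 0.0557). Leaving out any single library kept r between -0.690 and -0.610 for Dbp and between -0.700 and -0.601 for Per3.

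The Arntl and Per1 pair was weaker. It had r = -0.570 (permutation p = 0.00812, adjusted p = 0.0393) and rho = -0.525 (permutation p = 0.0188, adjusted p = 0.084), -0.451 within groups and -0.657 without the 2 farthest libraries. It was lost in 10 of the 20 fits without 1 library, those without Ad-Tmem120a-/- LFD replicate 6, 7, 8 or 10, control HFD replicate 11, 14 or 15, or Ad-Tmem120a-/- HFD replicate 17, 18 or 20 (adjusted p between 0.0521 and 0.15). On log2 CPM r was -0.343. Arntl and Nr1d1 did not pass (r = -0.457, permutation p = 0.0425, adjusted p = 0.124, rho = -0.453, permutation p = 0.0449, adjusted p = 0.126). They had r = -0.361 without the 2 farthest libraries and -0.267 within groups.

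Among the genes driven by Arntl and Clock, Per3 and Dbp were the closest pair, with r = 0.799 (permutation p = 4e-05, adjusted p = 0.0018) and rho = 0.788 (permutation p = 8e-05, adjusted p = 0.0036). Within groups r was 0.879, and without the 2 libraries farthest from the median of Per3 it was 0.684. Per2 and Per3 had r = 0.773 (permutation p = 0.00011, adjusted p = 0.00247) and rho = 0.770 (permutation p = 0.00018, adjusted p = 0.00405), with 0.761 within groups and 0.704 without the 2 farthest libraries. Per2 and Cry1 had r = 0.702 (permutation p = 0.00067, adjusted p = 0.01) and rho = 0.605 (permutation p = 0.00567, adjusted p = 0.0355). That relation rested in part on Ad-Tmem120a-/- LFD replicates 7 and 8, without which r was 0.522 and no longer passed (adjusted p = 0.104).

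Per1 went with Per2 (r = 0.599, permutation p = 0.00501, adjusted p = 0.0322, rho = 0.611, permutation p = 0.00501, adjusted p = 0.0355), at 0.619 without the 2 farthest libraries. That pair no longer passed without Ad-Tmem120a-/- LFD replicate 7 or 8 or control HFD replicate 15 (lowest r 0.465). Per1 and Nr1d1, both lower on HFD, had r = 0.635 (permutation p = 0.0011, adjusted p = 0.0121) and rho = 0.647 (permutation p = 0.00279, adjusted p = 0.0251), at 0.618 without the 2 farthest libraries. Within groups their r was 0.374 (adjusted p = 0.0624), with the diet difference taken out, and the pair was also lost without Ad-Tmem120a-/- LFD replicate 8 (r = 0.566, adjusted p = 0.0516). The 2 other positive pairs were Per1 with Per3 (r = 0.570) and Per2 with Dbp (r = 0.570).

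**Figure D4:**
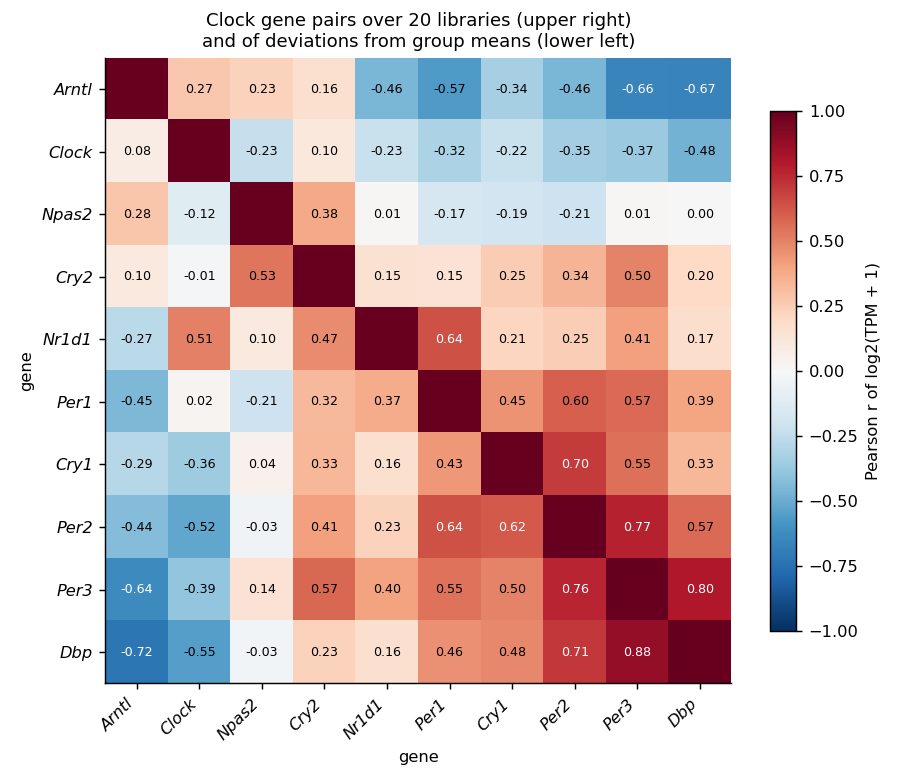
Pearson r of log2(TPM + 1) for every pair of clock genes, over the 20 libraries in the upper right triangle and for deviations from the 4 group means in the lower left. The Per genes, Cry1 and Dbp form a positive block, with up to 0.80 for Per3 and Dbp, and Arntl is negative against each of them, down to -0.67 for Dbp.

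Clock, Npas2 and Cry2 were in none of the 10 pairs, and Nr1d1 was in 1, with Per1. Clock followed Arntl weakly (r = 0.273 over 20 libraries and 0.0768 within groups) and its r with Dbp was -0.476 on log2(TPM + 1) (permutation p = 0.0336, adjusted p = 0.116, rho = -0.510, permutation p = 0.0224, adjusted p = 0.084) and -0.387 without the 2 farthest libraries. On log2 CPM r was -0.772 for that pair (permutation, adjusted p = 0.0009). Nr1d1 and Dbp, which share the E-box activators, had r = 0.172 and 0.159 within groups.

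The first principal component of the 10 genes (each scaled to unit SD) held 43.9% of their variance. Dbp, Nr1d1, Per1, Per2, Per3, Cry1 and Cry2 had loadings above 0 (0.148 to 0.439) and Arntl, Clock and Npas2 loadings below 0 (-0.355 to -0.0504). Its scores were highest in Ad-Tmem120a-/- LFD replicates 8, 7 and 6 (4.18, 3.84 and 2.15) and lowest in control HFD replicate 15 (-3.85), Ad-Tmem120a-/- HFD replicate 17 (-2.58) and Ad-Tmem120a-/- LFD replicate 9 (-2.11). High and low scores therefore occurred within one group. The log2 ratio of Dbp to Arntl TPM ran from 2.15 to 5.53 in control LFD, from 2.62 to 4.93 in Ad-Tmem120a-/- LFD, from 1.51 to 3.96 in control HFD and from 2.17 to 4.92 in Ad-Tmem120a-/- HFD mice. These ranges overlapped among all 4 groups. Whether the hour of collection differed between mice was not tested, since no hour is given for them.

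**Figure D5:**
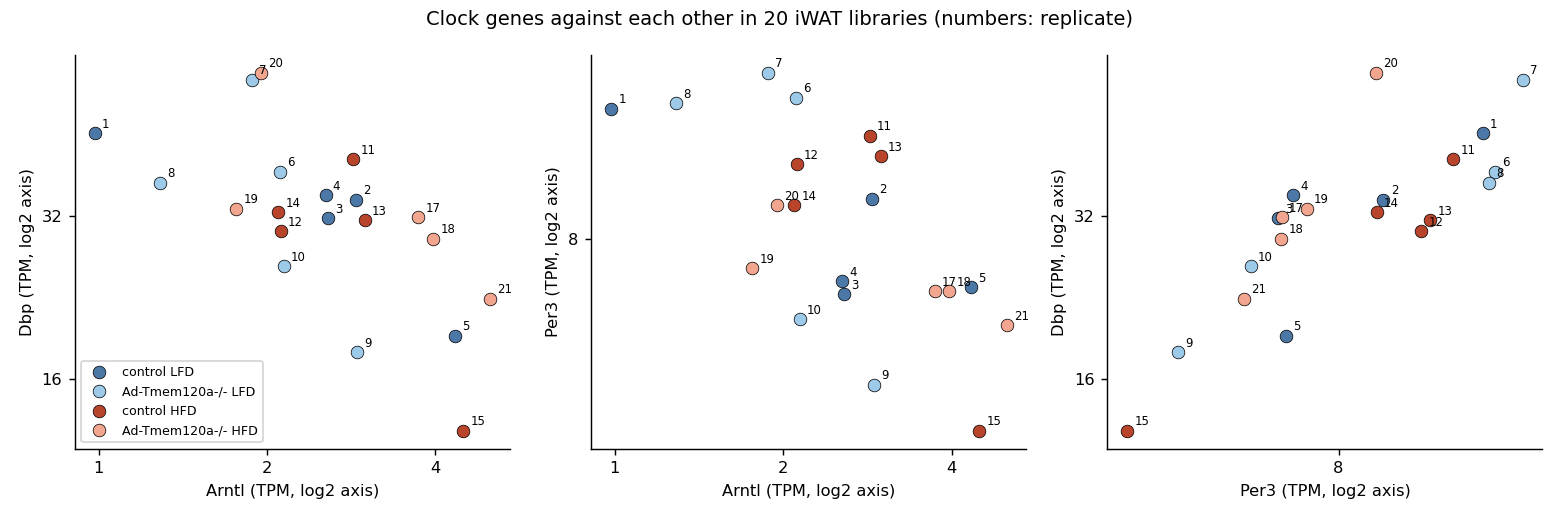
TPM of Arntl against Dbp, of Arntl against Per3 and of Per3 against Dbp in the 20 libraries (log2 axes, points coloured by group, numbers are replicates). Both panels with Arntl slope down, and Per3 and Dbp rise together, with control HFD replicate 15 at the low end of Dbp (12.8 TPM) and of Per3 (4.29 TPM).

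The genes most like Arntl and Dbp were sought among 12639 protein-coding genes averaging 1 TPM or more, by Pearson r of deviations from group means over the 20 libraries. The 5 highest for Dbp were Per3 (0.879), B230307C23Rik (0.867), Hap1 (0.834), Commd2 (0.822) and Krt18 (0.821), and the 5 lowest were Gm5577 (-0.791), Ffar2 (-0.769), Gm11035 (-0.753), Bcat1 (-0.751) and Larp1b (-0.749). The 5 lowest for Arntl were Klf9 (-0.753), Nr1d2 (-0.726), Sod1 (-0.722), Dbp (-0.721) and Cd209d (-0.717), and the 5 highest were 1700021K19Rik (0.767), Klre1 (0.755), Leng8 (0.742), Bcl10 (0.735) and Osbpl1a (0.728). So 2 genes of the loop, Nr1d2 and Dbp, were among the 5 most opposite to Arntl, with Hlf at rank 9 (-0.688), Per3 at rank 21 (-0.638) and Ciart, an E-box repressor, at rank 40 (-0.599). Ciart was at rank 7 of the genes nearest to Dbp (0.814) and ran between 0.364 and 8.004 TPM. The 8.004 TPM, in Ad-Tmem120a-/- HFD replicate 20, rested on 226 counts, against 381 counts for 3.36 TPM in control HFD replicate 14. That replicate 20 also had the highest Dbp (59.0 TPM), and its part in the correlation was not tested.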

How the data were processed

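The estimated counts and TPM per transcript were made by the authors with Salmon 0.13.1 on Ensembl transcripts of NCBIM37 (mm9) and deposited without normalization between libraries, apart from the TPM scaling to a fixed total. Per the labels STAR 2.5.3 was also run. Transcripts (96533, of which 94334 had a gene in GENCODE vM1) were added up by gene, and those without a gene took 0.377% to 0.581% of counts. Rounded gene sums were tested with edgeR 4.0.16 (quasi-likelihood, TMM, mean of at least 0.5 TPM). DESeq2 1.42.0 and limma 3.58.1 were alternatives. The spread is that between mice. Pairs were correlated over all 20 libraries in Python 3.11.15 (scipy 1.17.1). Clock genes, lists and tests were chosen with earlier results of these data known. Named genes were all 10 clock genes, called genes of the lists, Tmem120a, and the 5 highest and 5 lowest correlations of Arntl and Dbp. edgeR was tested on simulated data. Thra, Sphk2, Ciart and Nr1d2 values were chosen after they were seen. DESeq2 with no filter and the alternatives of the exact tests were added after seeing the data. The library number is not shared between groups, so no block was used. Some results on loop partners and clock protein turnover are not reported here.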

Additional observations from a re-analysis of the deposited data

Results flagged for a closer look

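In 3 of the 40 sets of 5 values (10 genes in 4 groups) 1 library stood far from the rest of its group, by a gap over 0.71 of the group's range, where chance alone gives about 1 in 20 sets. In Ad-Tmem120a-/- HFD replicate 20, Per2 was at 3.32 TPM and Dbp at 59.0 TPM, each the highest of its group, and Arntl was at 1.95 TPM. That library held 6332 Dbp counts of 70139027 in all. Replicate 17 of the group, at 31.8 TPM of Dbp, held 5442 of 92387737. The flags rest on TPM, and counts were not examined in this way. In Ad-Tmem120a-/- LFD replicate 8, Nr1d1 was at 52.8 TPM, above 43.9 to 46.1 TPM in the other 4, and without this library the Nr1d1 diet call in Ad-Tmem120a-/- mice remained, since every fit without 1 library there had an adjusted edgeR p of at most 0.018.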

How the results depend on the processing

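The count of clock genes called depended on the method in the diet comparisons. Shares of all genes called are given above for the main fits, and for DESeq2 and limma in controls and in the genotype comparisons. Counts under the other alternatives have no such share beside them, so they are not set against all genes. In controls it was 0 in edgeR, 1 with DESeq2, with length offsets, with limma on log2(TPM + 1) or log2(TPM + 0.1) and with all 20 libraries in one fit, 2 with DESeq2 and no filter (an alternative added after seeing the data), and between 0 and 1 without 1 library. The gene was Nr1d1, with Npas2 as the second, except in limma, where it was Clock. In Ad-Tmem120a-/- mice it was 2 in edgeR, 1 with length offsets and with either limma fit, where Per1 was lost, and between 1 and 3 without 1 library. Over both genotypes it was 3, 2 with no filter on low values, where Per1 was lost (adjusted p = 0.103), and between 1 and 3 without 1 library. The diet effect on Per1 in controls turned to 0.0425 without control HFD replicate 12, from -0.08 over all libraries, lay between -0.18 and 0.04 without 1 library, and was -0.39 with length offsets and -0.25 and -0.28 in limma on log2(TPM + 1) and log2(TPM + 0.1). In the genotype and genotype-by-diet comparisons it was 0 under every alternative run. The number of correlated pairs was 10 of 45, 15 of 36 on log2 CPM, 6 for deviations from group means and between 6 and 13 without 1 library, lowest without Ad-Tmem120a-/- LFD replicate 7 or 8. No share over pairs of other genes stands beside these counts. The number of the 40 exact tests with p under 0.05 was 6, and between 4 and 8 without 1 library (added after seeing the data). Exact tests were not run over all genes, so nothing is drawn from this count, which pools diet and genotype comparisons. In edgeR the share of all genes under an unadjusted p of 0.05 was 20.7% for diet in controls. For genotype it was 4.66% on HFD and 5.11% on LFD. The causes were not tested. No paired analysis was possible because no replicate number is shared between groups. Depth limits Npas2 (0 to 187 counts) most.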

Other observations

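Among the clock genes Nr1d1 passed the threshold with Per1 over the 20 libraries (r = 0.635), and within groups its r was highest with Clock (0.506) and Cry2 (0.475), neither of which passed. The genes nearest to it were looked up after its values were seen. Among 12639 protein-coding genes the 5 highest correlations with Nr1d1 within groups were Fat1 (0.928), Atp2a2 (0.900), Nr3c1 (0.890), the glucocorticoid receptor gene, Afap1 (0.880) and Crebbp (0.871), a coactivator gene. Rora was at 0.772 (rank 121), Hlf at 0.650 (rank 608), Per1 at 0.374 (rank 3055) and Dbp at 0.159 (rank 6097). Clock and Cry2 were at ranks 1646 and 1935, so many genes outside the clock followed Nr1d1 more closely than these did. Over all 20 libraries, diet differences included, Crebbp was at 0.931, Nr3c1 at 0.181 and Rora at 0.184. The SD of Nr1d1 was 13.6 TPM in control LFD and 3.65 TPM in Ad-Tmem120a-/- LFD mice. On HFD it was 2.33 TPM in controls and 3.55 TPM in Ad-Tmem120a-/- mice. The Nr1d1 correlations within groups therefore rested mostly on the 5 control LFD libraries.

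Cry2 fell into separate levels on LFD. Control replicates 3 and 4 stood at 7.32 and 7.33 TPM and Ad-Tmem120a-/- replicates 9 and 10 at 7.03 and 6.69 TPM, while the other 6 LFD libraries lay between 12.3 and 14.48 TPM. Control LFD replicates 3 and 4 were also the libraries with Nr1d1 at 26.1 and 22.1 TPM, while Ad-Tmem120a-/- LFD replicates 9 and 10 had Nr1d1 at 43.9 and 46.1 TPM.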
